A study of Homo sapiens with 8 samples.

Results

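The glutathione genes followed here were GSS, GSR, GLRX, GSTP1, GSTO1, GSTK1, GSTM3, MGST1 and MGST3 (chosen by name, for their place in glutathione synthesis and use), 9 of the 58735 genes listed in the deposited tables. They were measured in BEAS-2B, an established line of human bronchial epithelial cells, grown on inserts under medium and exposed at an air–liquid interface. Cultures received clean air or 1 ppm formaldehyde for 2 h and recovered for 6 h before RNA was extracted and depleted of ribosomal RNA. Part of each RNA was sequenced as input, and another part after immunoprecipitation (IP) with an antibody against 8-oxoguanosine (8-oxoG), the main oxidised form of guanosine. This gave 4 groups of 2 libraries, namely CA_IN and CA_IP for clean air and FA_IN and FA_IP for formaldehyde, with input and IP of a replicate split from one RNA. No genetic difference between the groups was named, and all shared the same exposure and recovery times. Clean air and formaldehyde were given in separate chambers, and the study saw methanol, ethanol and acetaldehyde rise with the formaldehyde. The formaldehyde itself, these compounds and the chamber cannot be told apart here. The study describes the 2 libraries of a group as biological replicates, and p-values measure the spread between them. The antibody clone is given as 15A3 in one label field and as 2E2 in another. A library without antibody or with control IgG was not analysed here, so RNA held by the beads and RNA held through 8-oxoG cannot be told apart.

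Glutathione is the main small thiol of the cell. Its last synthetic step, the joining of glycine to γ-glutamylcysteine, is made by glutathione synthetase (GSS), and its oxidised form is returned to the thiol by glutathione reductase (GSR). Glutaredoxin (GLRX) uses it to reduce mixed disulfides on proteins. The transferases join it to electrophiles: GSTP1 is the abundant pi-class enzyme of lung epithelium, GSTO1 belongs to the omega class, GSTK1 to the kappa class of mitochondria and peroxisomes, GSTM3 to the mu class, and MGST1 and MGST3 are small proteins embedded in membranes. Glutathione also binds formaldehyde, and the adduct is oxidised by ADH5 and then split by the hydrolase ESD.

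The RNAs of these genes differ in length and in guanine, the base that 8-oxoG comes from. On the GRCh38 build 8 of the genes lie at chr20:34928432-34956027 (GSS, minus strand), chr5:95751319-95822726 (GLRX, minus), chr11:67583742-67586656 (GSTP1, plus), chr10:104235356-104267459 (GSTO1, plus), chr7:143244093-143270854 (GSTK1, plus), chr1:109733932-109741038 (GSTM3, minus), chr12:16347142-16609259 (MGST1, plus) and chr1:165631213-165661796 (MGST3, plus). The most abundant isoform was shortest for MGST3 (680 nt), GSTP1 (741 nt), GSTM3 (783 nt) and MGST1 (914 nt), and longest for GSS (1919 nt) and GSR (3192 nt). Guanine made up 20.2% of the coding sequence of MGST1, the lowest of the 9, against 28.9% for GSTP1 and 28.8% for GSS, and between 24.9% (GSTM3) and 28.2% (GSR) in the others. The first 120 coding bases of 5 members are shown because 3 of them (MGST1, MGST3 and GLRX) were lower in the IP than in the input and 2 (GSTP1 and GSTO1) were not. Guanines are in capitals, and the sequences are those of the Ensembl canonical transcripts in GENCODE 44, read from the start codon.
MGST1: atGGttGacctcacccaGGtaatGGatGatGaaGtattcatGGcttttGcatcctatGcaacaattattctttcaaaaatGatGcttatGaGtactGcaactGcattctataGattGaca
MGST3: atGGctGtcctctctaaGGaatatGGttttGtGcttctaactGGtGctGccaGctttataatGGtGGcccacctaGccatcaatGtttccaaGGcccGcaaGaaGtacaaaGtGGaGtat
GLRX: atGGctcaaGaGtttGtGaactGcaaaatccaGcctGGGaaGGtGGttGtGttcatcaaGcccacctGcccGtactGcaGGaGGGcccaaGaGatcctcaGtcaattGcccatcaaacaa
GSTP1: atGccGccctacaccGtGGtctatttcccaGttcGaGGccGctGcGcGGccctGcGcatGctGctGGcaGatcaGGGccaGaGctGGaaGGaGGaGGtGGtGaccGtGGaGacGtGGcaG
GSTO1: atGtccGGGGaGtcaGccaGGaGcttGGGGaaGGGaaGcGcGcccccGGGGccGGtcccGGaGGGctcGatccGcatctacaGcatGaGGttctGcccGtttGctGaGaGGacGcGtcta
These stretches lie at chr12:16354253-16354372 (MGST1, 1 exon), chr1:165649848-165651016 (MGST3, 2 exons), chr5:95822543-95822662 (GLRX, 1 exon), chr11:67583844-67584546 (GSTP1, 3 exons) and chr10:104254929-104255248 (GSTO1, 2 exons). They hold 22, 29, 30, 45 and 46 guanines of 120 bases in that order. Of the members not shown, the same stretch holds 43 in GSS, 34 in GSTK1, which was not called in the IP, and 40 in GSTM3, which was lower in every IP library than in every input, so the guanine count of this stretch did not order the members by their IP values. The whole coding sequence of MGST1 has 0 runs of 3 or more guanines in its 465 bases, whereas that of GSTP1 has 12 in 630 bases, that of GSTO1 9 in 723 bases, that of MGST3 8 in 456 bases and that of GLRX 5 in 318 bases.

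Each file gives expected counts from RSEM, which estimates how many reads came from every isoform. The 4 input libraries summed to between 26152651 and 45144392 expected counts, and the 4 IP libraries to between 16883500 and 23658012. Mitochondrial genes took between 13.5% and 14.8% of the counts in the inputs and between 9.60% and 11.3% in the IP libraries. Genes with a most abundant isoform under 300 nt took 5.67% to 6.95% of the inputs and 4.47% to 5.38% of the IP libraries. The list for BEAS-2B (KRT5, KRT7, KRT8, KRT17, KRT18, KRT19, TP63, CDH1, EPCAM and VIM) summed to between 5938 and 9376 normalised CPM (counts scaled to one common library size). In that sum VIM, which is not particular to epithelium, stood between 806 and 1167. CD68, the highest of the markers outside that list, reached at most 8.70, and PTPRC, CD3E, SCGB1A1 and LUM were at or near 0. Levels below are gene sums in CPM scaled by edgeR's TMM factors, and the 18242 genes that reached 10 counts in 2 or more libraries entered the test, all 9 members among them. In whole-culture RNA, fewer cells making an RNA and less of it per cell cannot be told apart.

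All 9 genes were well above the limit of detection, and GSTP1 led by far. Compared per length, in TMM-scaled CPM per kilobase, CA_IN held 661 ± 17.9 (SD, n = 2) of GSTP1, 134 ± 1.45 of GSTO1, 128 ± 1.88 of MGST1 and 108 ± 9.30 of MGST3. Below them on the same scale came GSS at 65.7 ± 1.96, GLRX at 60.0 ± 4.86, GSTK1 at 50.6 ± 3.22, GSR at 44.6 ± 0.229 and GSTM3 at 37.5 ± 4.04. The libraries of GSS and GLRX lay close together, at 64.3 and 67.1 against 63.4 and 56.6. GSTM3 belongs to a gene family, and how many of its reads RSEM shared with other mu-class genes was not measured.

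Whether formaldehyde changed the amount of these RNAs was asked by comparing FA_IN with CA_IN. No member passed the test. The log2 fold changes of all 9 were above 0, between 0.06 (GSR) and 0.22 (MGST1), with a median of 0.10 beside a median of 0.02 over all 18242 genes. The smallest adjusted p among the members was 0.945 in edgeR's quasi-likelihood test with Benjamini-Hochberg adjustment, 0 of 9 had an unadjusted p under 0.05, and DESeq2 on all 8 libraries called 0 of 9 as well. Over all genes 1 was called, 0.00548% of those tested, and 611 had an unadjusted p under 0.05.

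GSS, the synthetase, stood at 101 and 104 CPM in the 2 CA_IN libraries and at 117 and 116 in the 2 FA_IN libraries. The groups did not overlap, and the fitted log2 fold change was 0.19 ± 0.09 (SE, n = 2 per group). GSTO1 likewise stood at 99.8 and 101 in CA_IN and at 114 and 111 in FA_IN, a log2 fold change of 0.16 ± 0.08. MGST1 was at 86.0 and 87.9 in CA_IN and at 92.1 and 110 in FA_IN, and its value of 0.22 ± 0.10 became 0.06 when FA_IN replicate 2, the higher of the pair, was left out. Both FA_IN libraries were above both CA_IN libraries for 5 of the 9 members (GSS, GSTP1, GSTO1, MGST1 and GLRX), and for 18.1% of all genes tested. Both were below for 0 of 9 members and for 15.8% of all genes. GSR, the reductase (chr8:30678066-30727846, minus strand), stood at 113 and 118 in CA_IN against 116 and 125 in FA_IN, and these groups overlapped. With the replicate number as a block, which the data allowed as described under the processing, 0 of 9 were called and the smallest adjusted p was 0.217, for MGST1 (edgeR), in a fit that called 1.34% of all genes lower and 0.0767% higher.

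**Figure D1:**
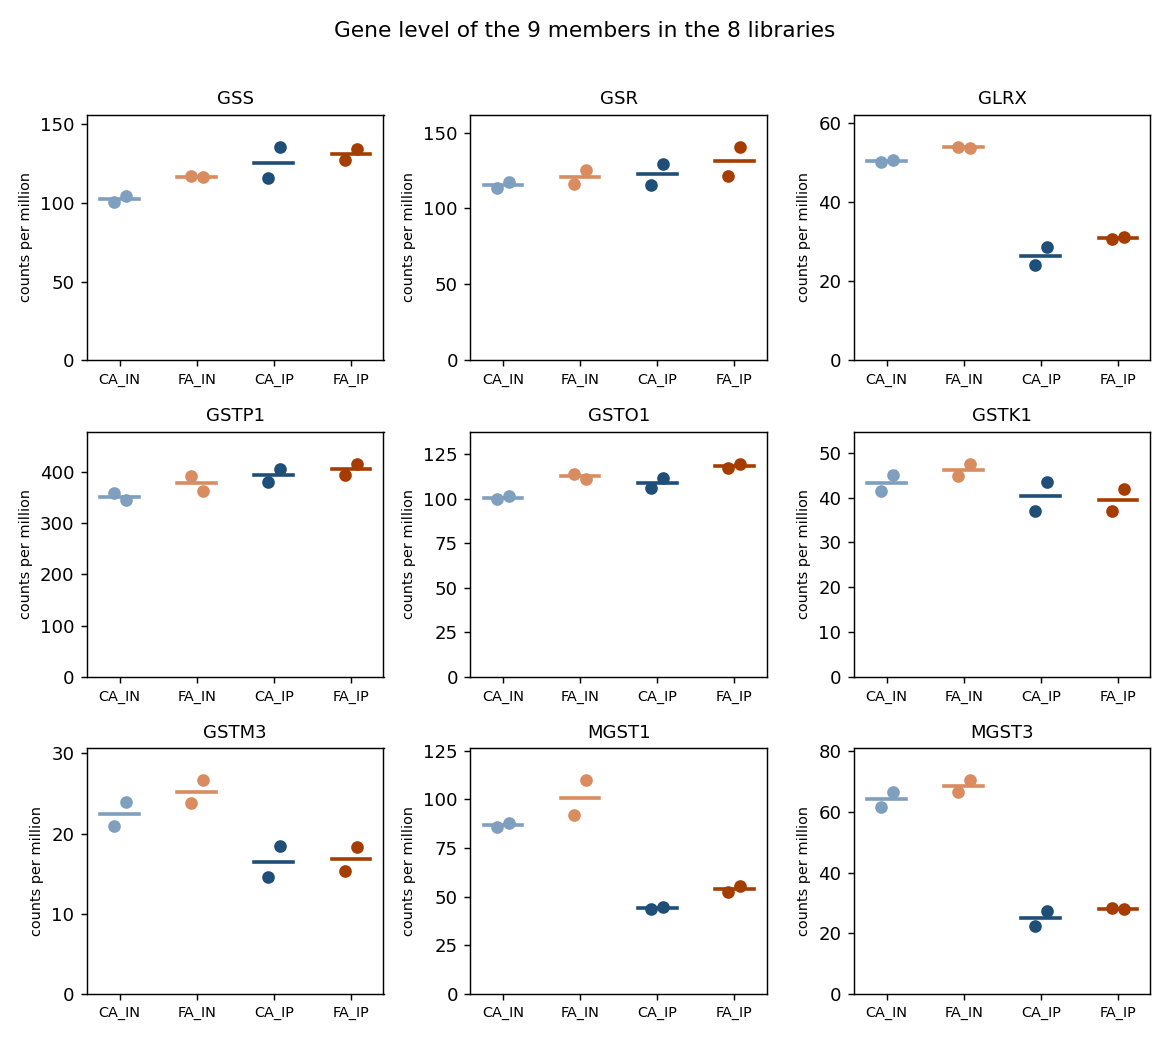
Gene level of each of the 9 glutathione genes in CPM (linear axes from 0, TMM-scaled). Points are single libraries and bars the mean of the 2 libraries of clean air input (CA_IN), formaldehyde input (FA_IN), clean air IP (CA_IP) and formaldehyde IP (FA_IP). MGST1, MGST3 and GLRX were lower in every IP library than in every input library, whereas GSTP1 lay between 345 and 416 throughout.

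Which of these RNAs the 8-oxoG antibody held back or left behind was asked by comparing IP with input in each atmosphere. In clean air 3 of the 9 members were lower in the IP (MGST1, MGST3 and GLRX) and 0 were higher, while 1.91% of all genes were called, 1.77% lower and 0.148% higher. After formaldehyde the same 3 were lower and 0 higher, where 1.5% of all genes were called, 1.47% lower and 0.0329% higher. The median log2 fold change of the 9 was -0.11 in clean air and -0.23 after formaldehyde, beside 0.02 and 0.00350 over all genes. All of these are shares of a library, so a lower value says that an RNA took a smaller part of the IP than of the input.

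MGST3, a membrane transferase, showed the deepest difference. It stood at 61.7 and 66.7 CPM in CA_IN and at 22.5 and 27.4 in CA_IP. After formaldehyde it stood at 66.5 and 70.4 in FA_IN and at 28.2 and 28.0 in FA_IP. Every IP library was thus far below every input library, and the log2 fold changes were -1.36 ± 0.12 (SE, n = 2 per group) in clean air and -1.28 ± 0.12 after formaldehyde, with adjusted p of 0.000435 and 0.000792 in edgeR. Only 1.85% of all genes tested had a log2 fold change as low in clean air, and 1.88% after formaldehyde.

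MGST1, the other membrane transferase, was at 86.0 and 87.9 in CA_IN and at 43.8 and 44.7 in CA_IP. With formaldehyde it was at 92.1 and 110 in FA_IN and at 52.3 and 55.5 in FA_IP. The groups were wide apart, with log2 fold changes of -0.97 ± 0.10 (edgeR, adjusted p = 0.00127) and -0.90 ± 0.10 (edgeR, adjusted p = 0.00243). GLRX, the glutaredoxin, fell from 50.03 and 50.6 in CA_IN to 23.9 and 28.5 in CA_IP, and from 53.9 and 53.7 in FA_IN to 30.7 and 31.1 in FA_IP. Its log2 fold changes were -0.94 ± 0.11 (edgeR, adjusted p = 0.00214) and -0.80 ± 0.11 (edgeR, adjusted p = 0.00662). The call for GLRX after formaldehyde was lost when either FA_IN library or either FA_IP library was left out, with adjusted p of 0.0902, 0.0736, 0.0773 and 0.095 in edgeR and a log2 fold change that stayed between -0.80 and -0.78.

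GSTM3 lay between these and the rest. It was at 20.9 and 23.9 in CA_IN against 14.5 and 18.5 in CA_IP, and at 23.8 and 26.6 in FA_IN against 15.3 and 18.3 in FA_IP. Its log2 fold changes of -0.44 ± 0.16 and -0.58 ± 0.16 did not pass in edgeR (adjusted p = 0.284 and 0.206), and the first was -0.28 without CA_IP replicate 1. With the RNA pool that input and IP share as a replicate block, they did, at -0.45 (edgeR, adjusted p = 0.000807) and -0.58 (edgeR, adjusted p = 6.87e-05), in a fit that called 5.85% and 4.6% of all genes lower.

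The synthetase, the reductase and the transferases GSTP1, GSTO1 and GSTK1 were not called in either comparison. Both IP libraries lay above both inputs for GSS, GSTP1 and GSTO1 in each atmosphere, as for 22.9% of all genes in clean air and 18.9% after formaldehyde. Both lay below for MGST1, MGST3, GSTM3 and GLRX in each, and for GSTK1 after formaldehyde, as for 18.1% and 18.5% of all genes. GSS stood at 116 and 136 in CA_IP and at 127 and 135 in FA_IP, above both inputs of its atmosphere, with log2 fold changes of 0.29 ± 0.09 and 0.17 ± 0.09 (edgeR, adjusted p = 0.217 and 0.719). The clean air value was 0.17 without CA_IP replicate 2 and 0.40 without CA_IP replicate 1. With the pool as a block the clean air value of 0.29 passed (edgeR, adjusted p = 0.00423) and the formaldehyde value of 0.17 did not (edgeR, adjusted p = 0.136), where that fit called 11.6% of all genes higher in clean air and 5.45% after formaldehyde. GSTP1 went from 358 and 345 in CA_IN to 381 and 405 in CA_IP, and from 393 and 362 in FA_IN to 393 and 416 in FA_IP, the FA_IP libraries lying above both inputs by very little. Its log2 fold changes were 0.16 ± 0.08 and 0.10 ± 0.08, those of GSTO1 0.12 ± 0.08 and 0.07 ± 0.08, and those of GSR 0.08 ± 0.10 and 0.12 ± 0.10, none of which passed. GSTK1 had -0.11 ± 0.12 in clean air, which turned to 0.04 with library size in place of TMM and to 0.00142 without CA_IP replicate 1, and -0.23 ± 0.12 after formaldehyde.

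**Figure D2:**
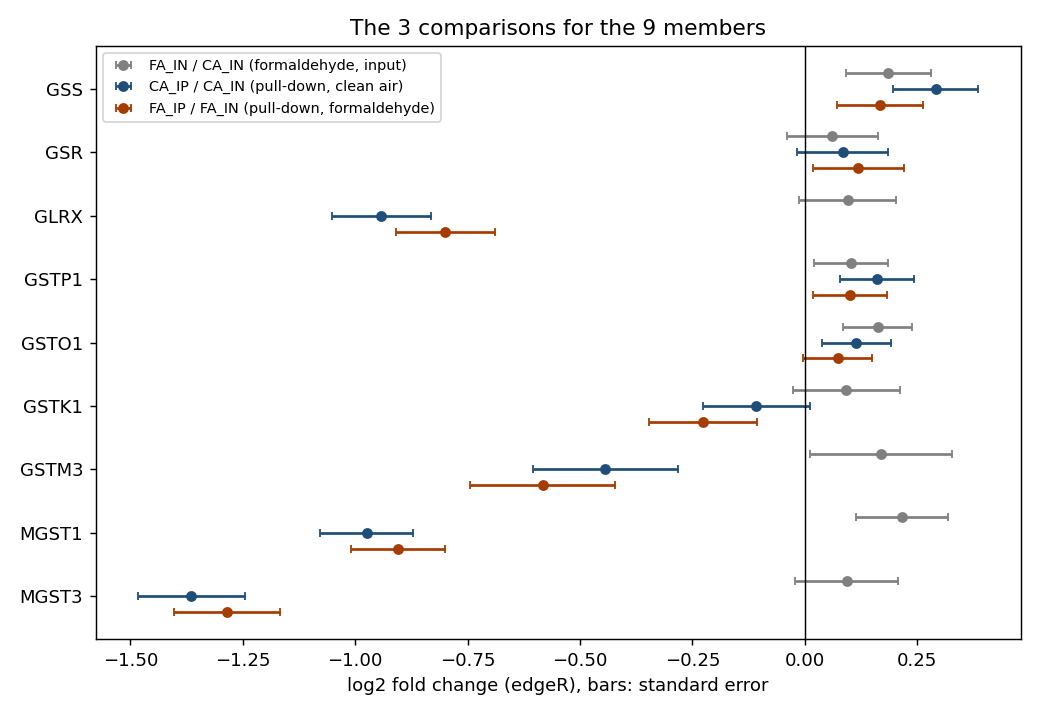
Log2 fold changes of the 9 genes (edgeR) with standard errors, for formaldehyde against clean air in input RNA (grey) and for IP against input in clean air (blue) and after formaldehyde (orange). The grey points lie between 0.06 and 0.22, and MGST3, MGST1 and GLRX lie at or below -0.80 in both IP comparisons.

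Whether formaldehyde altered how much of an RNA was recovered by the antibody was asked as the difference between both IP comparisons. None of the 9 passed, 0 had an unadjusted p under 0.05, and all adjusted p were 0.99997 or more in edgeR, with 0 genes called in the whole table (195 at an unadjusted p under 0.05) and 3 by DESeq2 on all 8 libraries, none of them a member. With the RNA pool that input and IP share as a block 0 of 9 passed, where 0.0274% of all genes were called lower and 0.11% higher. In simulated data the fit without that block recovered 49 of 100 planted 2-fold changes and 85 of 100 planted 3-fold changes. A member that did not pass thus cannot be taken as unchanged. The differences ran from -0.14 ± 0.23 (SE) for GSTM3 to 0.14 ± 0.15 for GLRX. MGST3 differed by 0.08 ± 0.17, MGST1 by 0.07 ± 0.15 and GSS by -0.12 ± 0.13, each smaller than its own standard error. The value of GSS was -0.24 without CA_IP replicate 1 and -0.0047 without CA_IP replicate 2. Both IP comparisons use separate libraries throughout, and the ratios of IP to input in the 4 RNA pools can be set side by side. For MGST1 they were -0.97 and -0.98 in clean air and -0.82 and -0.98 after formaldehyde on the log2 scale. For MGST3 they were -1.46 and -1.28, then -1.24 and -1.33, so that the pools of one atmosphere were as far apart as the atmospheres. For GSS they were 0.20 and 0.38, then 0.12 and 0.21.

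Among tested genes, the share called lower in the IP differed by isoform length and, at 600 to 1300 nt, by coding guanine share. Among the 2582 tested genes whose most abundant isoform was shorter than 1000 nt, 10.5% were lower in the clean air IP and 8.91% after formaldehyde, and among the 2785 genes of 600 to 1300 nt these shares were 4.34% and 3.81%. Of the 7 members in that range, 3 were lower and 4 were not, GSTP1 at 741 nt and GSTO1 at 972 nt among the latter. All 7 have a known coding sequence, which part of the 2785 genes lack, so 4.34% and 3.81% are not shares of coding genes alone. When the 600 to 1300 nt genes with a known coding sequence were split by its guanine share into lowest (470 genes, up to 26.1% guanine), middle (468 genes) and highest (467 genes), 15.7% of the lowest group were lower in clean air, 7.48% of the middle and 1.71% of the highest. After formaldehyde the shares were 13.4%, 6.62% and 1.93%. MGST1 at 20.2% and GSTM3 at 24.9% fell in the lowest group, and GSTO1 (26.8%), GSTK1 (27.7%), GSTP1 (28.9%), MGST3 (26.3%) and GLRX (26.4%) in the middle one. MGST3 and GLRX thus lay beside GSTO1 in guanine and far below it in log2 fold change. The guanine share of GSTM3 is that of ENST00000361066, which held between 8.79% and 16.0% of its counts as group means. The leading isoform of GSTM3, ENST00000486823, has no defined coding sequence in GENCODE 44. The part of length or base composition in the results for single members was not tested.

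**Figure D3:**
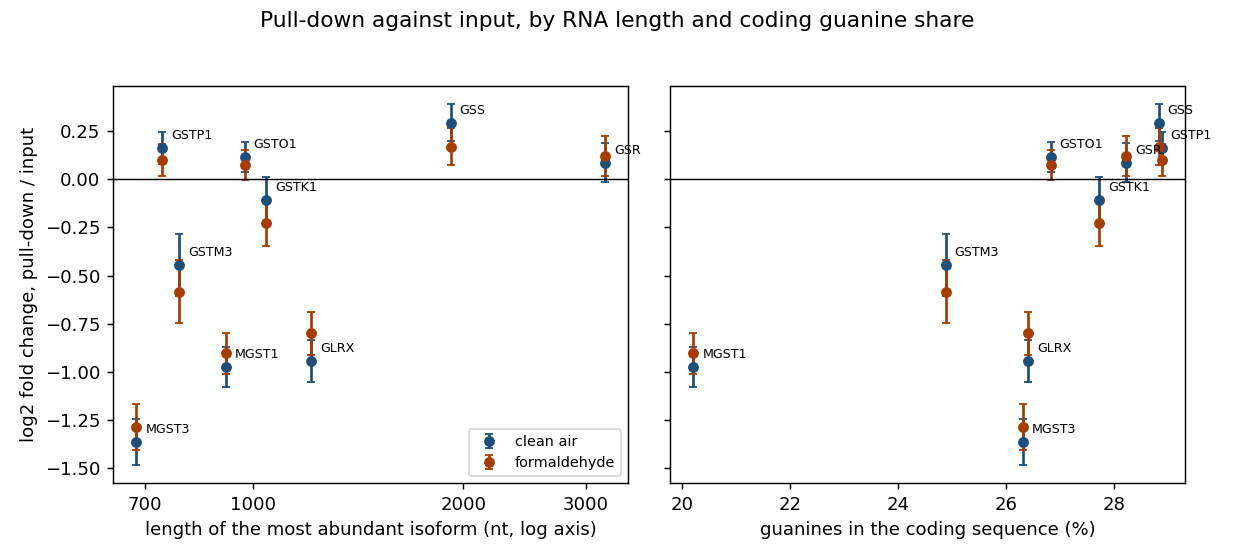
Log2 fold change of IP against input (edgeR, bars are standard errors) against the length of the most abundant isoform in nt (left, log axis) and against the guanine share of the coding sequence in percent (right), for the 9 genes in clean air (blue) and after formaldehyde (orange). The longest RNAs, GSS and GSR, lie above 0, while RNAs of 680 to 1211 nt spread from -1.36 to 0.16.

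The isoforms behind the counts also differed in length between IP and input for some members. The mean isoform length, weighted by expected counts, was greater in IP than in input in 4 of 4 pools for MGST1, MGST3, GSTM3 and GLRX, against 2, 0, 1, 2 and 2 of 4 pools for GSS, GSR, GSTP1, GSTO1 and GSTK1. Of the 14103 tested genes with at least 2 isoforms counted, 7.44% were longer in 4 of 4 pools, and 12.3% of the 1621 such genes of 600 to 1300 nt. GSTM3 had between 1001 and 1133 nt in the 4 inputs and between 1201 and 1284 nt in the 4 IP libraries, without overlap, as did 2.53% of those genes and 5.37% of the ones of 600 to 1300 nt. Isoforms of at least 1300 nt made up between 14.4% and 20.3% of GSTM3 in the inputs and between 23.0% and 29.2% in the IP libraries. For GLRX these shares were between 14.1% and 17.3% and between 19.9% and 34.5%. No test was made of these lengths.

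Of the 107 transcripts annotated to the 9 genes, 63 were tested singly. In clean air 3 were lower in the IP, on a background of 0.227% of 67873 transcripts, and 0 were higher (0.0147% of all). They were MGST3 ENST00000367889 (log2 fold change -1.52 ± 0.14, edgeR, adjusted p = 0.0259), MGST1 ENST00000396210 (-1.16 ± 0.13, adjusted p = 0.0485) and GLRX ENST00000237858 (-1.34 ± 0.16, adjusted p = 0.0496), the last 2 being the most abundant isoforms of their genes. After formaldehyde only ENST00000367889 passed (-1.34 ± 0.14, edgeR, adjusted p = 0.0416), against 0.137% of all transcripts lower and 0.00737% higher. All of these calls were lost when any 1 library was left out. With the replicate number as a block, ENST00000237858 in clean air and ENST00000367889 after formaldehyde were lost (edgeR, adjusted p = 0.064 and 0.0591), and MGST3 ENST00000367885 passed in both (-1.48 and -1.50, edgeR, adjusted p = 0.0308 and 0.0347). Between FA_IN and CA_IN 0 of 63 were called by edgeR and by DESeq2, with 0 at an unadjusted p under 0.05, and for the difference in enrichment 0 by edgeR, with 1 at an unadjusted p under 0.05.

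Of the 9 members 3 (GSTO1, GSTP1 and GSR) were counted almost wholly as 1 isoform, and 3 more (MGST1, GSTK1 and GSS) mostly so. ENST00000369713 held between 96.8% and 97.1% of GSTO1 as group means, ENST00000642444 between 96.4% and 96.96% of GSTP1, ENST00000221130 between 90.2% and 93.1% of GSR, ENST00000396210 between 73.2% and 83.0% of MGST1, and ENST00000358406 between 78.2% and 83.2% of GSTK1. MGST3 was shared by ENST00000367885 and ENST00000367889, which held 47.4% and 42.9% in CA_IN. GSTM3 and GLRX had 4 and 3 isoforms at or above 10% in some group, led by ENST00000486823 (between 42.2% and 53.2%) and ENST00000237858 (between 56.8% and 75.7%). No isoform share of any member passed edgeR's test of isoform use between FA_IN and CA_IN, CA_IP and CA_IN, or FA_IP and FA_IN, with smallest adjusted p of 0.5, 0.732 and 0.0512. Over the 61615 transcripts tested for it, 0.169%, 0.38% and 0.242% passed, and of the members' 63 transcripts 2, 2 and 3 had an unadjusted p under 0.05. In simulated data this test recovered 7, 7 and 9 of 100 planted 4-fold changes of transcripts in those comparisons. Of 100 planted 8-fold changes it recovered 33, 32 and 35, so a share that did not pass cannot be taken as unchanged.

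GSS had the most transcripts, 28, of which 24 had a count. The coding isoform ENST00000216951, which is not in GENCODE 44, held 77.8% and 70.2% of GSS in the CA_IN libraries and 77.3% and 71.3% in the FA_IN libraries. In the IP it held 79.5% and 77.4% in clean air and 75.2% and 71.8% after formaldehyde. Its share spread as widely within CA_IN as between any of the groups. The other isoform above 10%, ENST00000642498, held 8.38% and 13.0% in the clean air inputs, 9.72% and 14.2% in the formaldehyde inputs, 9.52% and 10.3% in the clean air IP and 9.02% and 13.1% in the formaldehyde IP. It joins its last exon 286 bases upstream of the usual site, and its coding sequence is 1350 bases against 1422 in the canonical ENST00000651619. ENST00000642538, annotated as a target of nonsense-mediated decay and named after its values were seen, held between 6.54% and 7.61% in the group means and joins canonical exon 4 to exon 7. The junctions that set these isoforms apart are shown as 15 bases on each side, with the downstream exon in capitals, on the minus strand of chr20 in GRCh38.
ENST00000651619, exons 12 and 13, edges 34929401 and 34928951: tggggtctatgtcagGCAGGAAAAGACACT
ENST00000642498, exons 12 and 13, edges 34929401 and 34929237: tggggtctatgtcagGCCAAGGACCCAAGA
ENST00000642538, exons 4 and 5, edges 34942931 and 34937023: gagggcattgcccagTGCTCTGGTGCTACT
ENST00000651619, exons 1 and 2, edges 34955727 and 34951860: aggaaaggcgaactaGTGTTGGGATGGCCA
ENST00000644793, exons 1 and 2, edges 34954716 and 34951860: tattctagtttgaagGTGTTGGGATGGCCA
The last pair of stretches differs only upstream of exon 2. Their transcripts end at different bases, 34928479 for ENST00000644793 and 34928432 for ENST00000651619. Exon 1 of ENST00000644793 is 920 bases long and lies at chr20:34954716-34955635, in place of the 80-base exon at chr20:34955727-34955806, and both transcripts encode the same 1422 coding bases.

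ENST00000644793 was among the transcripts that the study listed as enriched in oxidation, a list chosen on these libraries, so its values are a description. Its expected count was 16.9 and 40.3 in the 2 FA_IP libraries and at most 0.01 in the other 6. The mean CPM of FA_IP was 13.8 times a floor of 3 counts per library in FA_IN, and 9.40 times that floor in CA_IP. No allowance was made for the spread of the 2 FA_IP libraries. Those floors correspond to up to 0.106% and 0.0746% of GSS in the FA_IN libraries, and 0.73% and 1.23% was found in FA_IP. The floors cover counting error of the libraries at or near 0 only, since PCR copies of one molecule are not separate molecules, and not the division of reads among isoforms by RSEM. The transcript reached 10 counts in 2 libraries only through FA_IP, the group where it is high, so its tests cannot serve as support for a difference. In edgeR it did not pass in FA_IP against FA_IN (adjusted p = 0.523), nor did its share of GSS (adjusted p = 0.275). DESeq2 on the 4 libraries of that comparison, with no filter on low counts, called it (adjusted p = 0.0185). Of the GSS isoforms in GENCODE 44, 1 other, the retained-intron ENST00000645723, has a first exon that ends at the same splice site, and it was counted in all 8 libraries. The CA_IN libraries had 59.0 and 48.1 expected counts of it, the FA_IN libraries 46.1 and 54.5, the CA_IP libraries 31.6 and 39.9 and the FA_IP libraries 27.4 and 17.6. Summed, the 2 isoforms with this splice site held 1.34% and 1.26% of GSS in the clean air inputs, 1.64% and 1.36% in the formaldehyde inputs, 1.16% and 1.42% in the clean air IP and 1.92% and 1.77% in the formaldehyde IP. On the sum the 2 FA_IP libraries were the highest but close to FA_IN replicate 1, whereas the FA_IP mean of the single isoform was 13.8 times the floor of FA_IN.

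**Figure D4:**
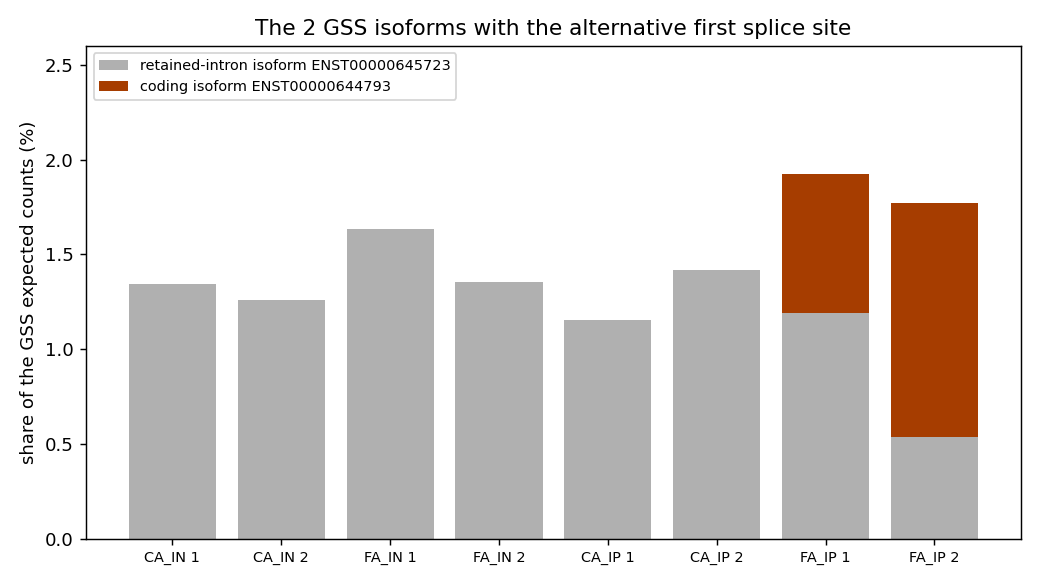
Share of the GSS expected counts (percent, linear axis from 0) held in each of the 8 libraries by the 2 isoforms whose first exon ends at the alternative splice site, the retained-intron ENST00000645723 (grey) and the coding ENST00000644793 (orange), stacked. The coding isoform is visible in the 2 FA_IP libraries, where the grey part is lowest in replicate 2, and the stacks lie between 1.16% and 1.92%.

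The second transcript of these genes on the study's list was MGST1 ENST00000396207, and the same limit on its values holds. Its expected counts were 0 and 27.6 in the CA_IN libraries, 0 in both FA_IN libraries, 0 and 73.9 in the CA_IP libraries and 36.9 and 34.0 in the FA_IP libraries. The clean air libraries of replicate 2 thus held it in both fractions, and the mean CPM of FA_IP was 18.4 times a floor of 3 counts per library in FA_IN. It differs from the chief isoform ENST00000396210 in its first exon of 51 bases at chr12:16353417-16353467 and by 1 base at its end, and has the same 465 coding bases. ENST00000010404, named after its values were seen, with a further first exon at chr12:16347142-16347184, had 317 and 83.5 counts in the clean air inputs, 140 and 273 in the formaldehyde inputs, 25.4 and 0 in the clean air IP and 75.2 and 0 in the formaldehyde IP. The summed share of ENST00000396207 and ENST00000010404 was 8.45% and 3.46% of MGST1 in the clean air inputs, 6.31% and 7.20% in the formaldehyde inputs, 2.45% and 7.97% in the clean air IP and 11.8% and 2.51% in the formaldehyde IP, so that all 4 groups overlapped. As a single transcript ENST00000396207 did not pass in FA_IP against FA_IN (edgeR, adjusted p = 0.875). DESeq2 on the 4 libraries of that comparison, with no filter on low counts, called it (adjusted p = 0.00303). The share of ENST00000396207 missed the limit in FA_IP against FA_IN (edgeR, adjusted p = 0.0512) and passed with the replicate number as a block (edgeR, adjusted p = 0.0208), with library size in place of TMM (edgeR, adjusted p = 0.0473), and without CA_IP replicate 1, CA_IP replicate 2 or FA_IP replicate 2 (edgeR, adjusted p = 0.0214, 0.0421 and 0.0477). Without FA_IP replicate 1 it was the share of ENST00000010404 that passed, as lower (edgeR, adjusted p = 0.0437). The 4 isoforms with those coding bases together made up between 86.5% and 94.7% of MGST1 in the 8 libraries.

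A list of 45 further genes of glutathione metabolism was followed in the same fits, and 40 of them were tested. Between FA_IN and CA_IN 0 were called, 0 had an unadjusted p under 0.05, and their median log2 fold change was 0.09. In clean air 3 were lower in the IP and 0 higher, with a median of 0.06, and after formaldehyde 2 were lower and 0 higher, with a median of 0.06. Over all genes tested 1.77% and 1.47% were lower, and 10.5% and 8.91% of those under 1000 nt, with medians over all genes of 0.02 and 0.00350. Thioredoxin (TXN), the small protein disulfide reductase that works in parallel to glutaredoxin, went from 431 and 413 CPM in CA_IN to 205 and 208 in CA_IP (log2 fold change -1.03 ± 0.08, edgeR, adjusted p = 0.000224), and its value after formaldehyde was -0.92 ± 0.08 (edgeR, adjusted p = 0.000491). ESD, the hydrolase of the oxidised form of the adduct of formaldehyde and glutathione, went from 93.3 and 109 in CA_IN to 45.4 and 50.9 in CA_IP (-1.07 ± 0.11, edgeR, adjusted p = 0.00126), with -0.87 ± 0.11 after formaldehyde (edgeR, adjusted p = 0.00508). MGST2, another small membrane transferase of the family of MGST1 and MGST3, went from 17.5 and 19.1 to 9.46 and 11.7 in clean air (-0.80 ± 0.16, edgeR, adjusted p = 0.0416), and its -0.65 ± 0.16 after formaldehyde did not pass (edgeR, adjusted p = 0.127). The 3 RNAs were 869, 1192 and 801 nt long, with 25.1%, 20.9% and 24.7% guanine in their coding sequences. Named after their values were seen, for their place in the pathway, the subunits of the first synthetic enzyme, GCLC and GCLM, had log2 fold changes of -0.09 ± 0.11 and -0.09 ± 0.11 between FA_IN and CA_IN, and ADH5, which oxidises the formaldehyde adduct, had 0.09 ± 0.10. In the IP of clean air their values were 0.03 ± 0.11, -0.09 ± 0.11 and 0.08 ± 0.10, and none of these passed.

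Among the genes whose level over the 8 libraries was most like that of GSS were SARS2, ME3, ELMO3 and ACTN1, with Pearson r between 0.987 and 0.994 on the log2 scale over 8 libraries. All points share the 4 RNA pools and the step from input to IP, so these values are a description only.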

How the data were processed

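RNA of BEAS-2B cells was sequenced in 8 libraries. The authors trimmed 75-base reads with cutadapt, aligned them with STAR 2.6.0a to GRCh38 (Ensembl) and deposited RSEM 1.2.25 expected counts per transcript, beside transcript lengths and effective lengths in bases, with no normalization. The authors also deposited 3 tables of their DESeq2 comparisons (log2 fold changes and p-values), 2 of which are byte-identical, and none of which was used. The small RNA library kit and the rRNA depletion may affect which lengths are recovered, and RSEM divides reads that isoforms share, so an isoform can be listed at 0 while its reads go to another.

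Expected counts were summed by gene and rounded. Genes or transcripts with at least 10 counts in at least 2 of 8 libraries were fitted over all 8 libraries with edgeR 4.0.16 (TMM, quasi-likelihood F test, limma 3.58.1, R 4.3.3), with Benjamini-Hochberg adjustment over all features and a limit of 0.05. Isoform use was tested with edgeR's differential splicing test on the transcript fit. The common dispersion was 0.0190 for genes and 0.303 for transcripts. Library totals are given with the results, and they set the counting precision. Symbols, coordinates and sequences came from GENCODE 44 on GRCh38, whose build is that of the files though its release is later. Coding guanine shares replaced those of the most abundant isoform, which for GSS and GSTP1 is not in that release. Python 3.11.15 and pandas 2.3.3 read the tables, and the fits were tested on simulated data.

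Groups came from the labels. The study numbers its second replicate 3. Input and IP of a number came from one RNA, and deviations from the group means correlated between same-numbered libraries in all 6 pairs of groups (Pearson r 0.203 to 0.380 over 18242 genes), so the numbers were taken to pair the libraries. An exact permutation test of 2 against 2 libraries cannot go below p = 0.333. Alternatives were DESeq2 1.42.0, other scalings and filters, fits on 4 libraries, each library left out, and a replicate block. The block was the RNA pool for genes in the IP comparisons and their difference, and the replicate number otherwise. All 9 members were named, with isoforms of at least 10% of a gene in some group, the transcripts of the study's list, pathway genes that passed, and, of the 5 genes most like GSS, 4, the other not being reported here. The members and lists were chosen with earlier results of these data known.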

Additional observations from a re-analysis of the deposited data

How the results depend on the processing

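Of 522 values of single members under the alternatives, 503 kept their direction and their side of the limit, 4 were lost, 5 passed anew and 10 changed sign. MGST1 and MGST3 stayed lower in both IP comparisons in every fit, with log2 fold changes between -1.02 and -0.74 for MGST1 and at or below -1.11 for MGST3. Library size in place of TMM shifted the median of all genes to 0.16 in clean air and 0.17 after formaldehyde, from 0.02 and 0.00350, and called 821 genes higher and 336 lower in clean air (318 and 243 after formaldehyde), against 27 and 322 (6 and 268), with GSS among the higher. The replicate block called 2111 higher and 1067 lower (995 and 840). GSTK1 in clean air turned to 0.039 with library size. With the replicate block, 5 members were called in clean air in place of 3, 4 after formaldehyde, and 1 isoform share in FA_IP against FA_IN in place of 0. That share (MGST1 ENST00000396207) was also called with library size, as 1 against 0. For single transcripts, library size left 1 call in clean air in place of 3 and 0 after formaldehyde in place of 1. After formaldehyde, no filter gave 4 calls, a mean count of at least 50 gave 3, and DESeq2 on 4 libraries, likewise with no filter, gave 6. The block changed no other call than those given beside the results. The filters leave a larger or smaller number of features, and the cause of these changes was not tested.

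With each library left out, single transcripts gave 0 calls in every fit in both IP comparisons, isoform shares in FA_IP against FA_IN gave 0 to 1, members called after formaldehyde 2 to 3 and in clean air 3. Values that changed sign ranged from -0.016 to 0.10 for GSR in the inputs, from -0.22 to 0.00142 for GSTK1 in clean air, and in the difference in enrichment from -0.11 to 0.029 (GSTP1), -0.077 to 0.0057 (GSTO1), -0.019 to 0.24 (MGST1), -0.046 to 0.14 (GSR), -0.058 to 0.23 (MGST3) and -0.30 to 0.042 (GSTM3), none of them called. A group left with 1 library was assumed to vary like the others. Fits of single transcripts and isoform shares varied more between libraries than those of genes (common dispersion 0.303 against 0.0190).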
